A study of Eutrema salsugineum with 41 samples.

Results

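The 150 genes described here had their lowest RNA levels in the 2 latest plants of a transformed Eutrema salsugineum lineage, AtCMT3-L2T5 and AtCMT3-L2T6. E. salsugineum is a salt-tolerant relative of Arabidopsis thaliana that has no CHROMOMETHYLASE 3 (CMT3) of its own, and AtCMT3 is the A. thaliana CMT3 gene, which was introduced under its native promoter. Leaf RNA was sequenced from 10 individual plants of the Shandong ecotype with 1 library each, in a study of 41 samples that also profiled DNA methylation and histone marks. The late AtCMT3-L2 plants, of transgenic generations T5 and T6, are set against the other 8 plants. These are AtCMT3-L2T3 and AtCMT3-L2T4 of the same lineage, AtCMT3-L1T3, AtCMT3-L1T4 and AtCMT3-L1T5 of a lineage from a separate transformation, AtCMT3-L3T2 and AtCMT3-L3T2b of the remaining lineage, and 1 wild-type (WT) plant without the transgene. The late AtCMT3-L2 plants belong to 1 lineage and so are not independent transformants, and transgene insertions can segregate between generations.

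Of the 26352 genes in the expression table, 16302 were scored. These had a mean of at least 2 transcripts per 1000000 (TPM, a level that is corrected for transcript length and library size) and were outside the 200 genes with the highest mean. The score of a gene is its lowest log2(TPM + 1) among the other 8 plants minus its highest value in the late AtCMT3-L2 plants, so a score above 0 means that both late plants lie below all others. A score above 0 was found for 2079 genes, or 12.8% of those scored, and the 150 with the highest scores are the members. They were chosen by these RNA levels, and all 10 RNA libraries entered the choice. The values below therefore describe the members, and nothing was tested, since genes picked for a gap between these plants have to show it.

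CMT3 adds methyl groups to cytosines in the CHG context, where H is any base but G, and is drawn to nucleosomes that carry H3K9me2, a histone mark of silent chromatin. Among the members that could be named are orthologs of a jasmonate repressor and of proteins that make ribosomes. JAZ proteins keep jasmonate-responsive transcription factors silent, together with corepressors of the TOPLESS family, until the hormone triggers their breakdown. Ribosomes are built in the nucleolus, where RNA polymerase I transcribes the large ribosomal RNA precursor, and where assembly factors and exonucleases, the RNA exosome among them, cut and fold it.

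The members had a median of 8.87 and 8.29 TPM in AtCMT3-L2T5 and AtCMT3-L2T6, against medians between 16.6 TPM in AtCMT3-L1T4 and 29.8 TPM in AtCMT3-L3T2b among the other 8 plants, with 26.4 TPM in WT. Summed over the 150 genes, their RNA came to 3245 and 4027 TPM in AtCMT3-L2T5 and AtCMT3-L2T6, and to between 6689 TPM in AtCMT3-L1T4 and 11656 TPM in AtCMT3-L3T2b. Neither late plant therefore came near the lowest of the others in the sum. Relative to WT, the median member differed by -1.69 in AtCMT3-L2T5 and by -1.36 in AtCMT3-L2T6 on the log2(TPM + 1) scale. The same medians over all scored genes were -0.22 and -0.09, and between -0.09 and 0.11 in the other AtCMT3 plants. AtCMT3-L2T5 was thus also shifted as a whole beyond this range, and AtCMT3-L2T6 lay at its lower edge. In RNA from whole leaves, fewer cells that express a gene and less RNA per cell cannot be told apart. The plot of member levels by plant shows the late plants below the rest, and the T4 plants between.

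**Figure D1:**
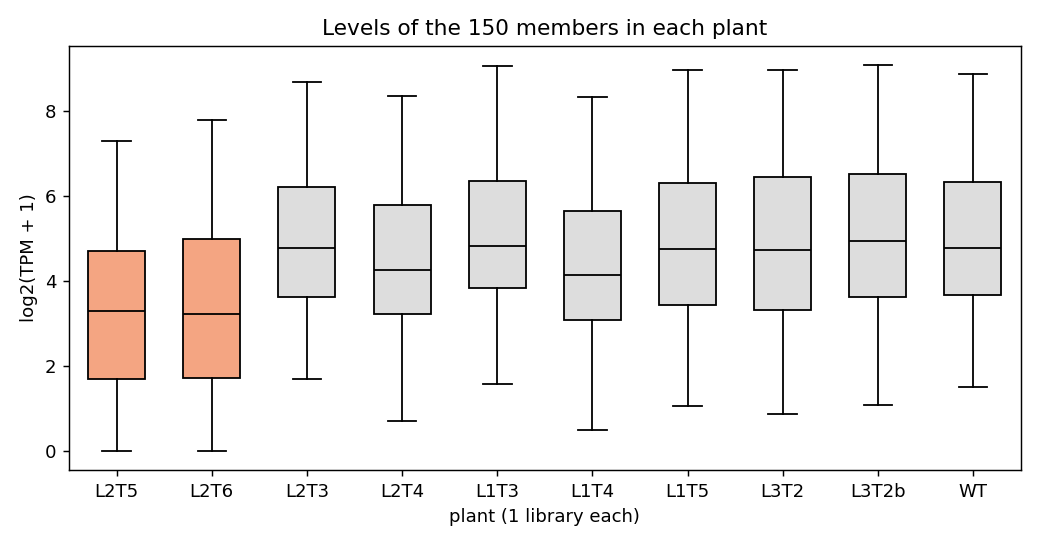
Levels of the 150 members on the log2(TPM + 1) scale in each plant, with boxes for quartiles, lines for medians and whiskers to the lowest and highest member. The late AtCMT3-L2 plants (orange, medians 8.87 and 8.29 TPM) lie below the other 8 plants (grey, medians of 16.6 to 29.8 TPM).

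The share of all RNA taken by a few abundant genes moved with this pattern. The 200 highest genes of each library, taken library by library, held 41.9% of the TPM in AtCMT3-L2T5 and 38.5% in AtCMT3-L2T6. In the other plants the 200 highest genes held between 27.5% in AtCMT3-L3T2b and 37.9% in AtCMT3-L1T4, with 37.2% in AtCMT3-L2T4 and 30.2% in WT. TPM values are shares of a fixed total, so a larger share of the highest genes lowers the values of the rest. With median of ratios scaling, which does not depend on the most abundant genes, all 150 members scored above 0. Their median difference from WT was -1.50 in AtCMT3-L2T5 and -1.28 in AtCMT3-L2T6. On that scale 1255 genes scored above 0 in all, fewer than the 2079 above. The result for the members was all but fixed, since each had been chosen with a score of 0.445 or more. The scaling moved the median of all scored genes against WT only from -0.22 to -0.03 in AtCMT3-L2T5 and from -0.09 to -0.01 in AtCMT3-L2T6. Whether the larger share of the highest genes lowered the members was therefore not tested.

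Most members were reduced in part rather than silent in the late plants. The mean of both late plants was between 0% and 64.7% of the median of the other 8 plants, with a median over the members of 34.4%. It was under 10% for 17 members, from 10% to under 33.3% for 55, from 33.3% to under 50% for 53 and at 50% or more for 25. In both late plants 19 members stayed under 1 TPM, and 6 members were listed at 0 in AtCMT3-L2T5 and 2 in AtCMT3-L2T6. No member was at 0 in any of the other 8 plants.

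The scores ran from 0.45 to 1.88, with a median of 0.56. Only 7 members scored 1 or more, and 96 scored under 0.6, so most of the list lies close to its lower end. The 3 last members had scores of 0.448, 0.447 and 0.445, and the 3 genes next in order had 0.4447, 0.442 and 0.441. The last member was at 0.679 and 0.574 TPM in AtCMT3-L2T5 and AtCMT3-L2T6, against 1.29 TPM in the lowest of the other plants. The first gene left out was at 16.9 and 21.2 TPM, against 29.3 TPM. Nothing in the levels separates genes on either side of this line.

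The members varied more among the other 8 plants than scored genes did at large. The SD of log2(TPM + 1) over these plants had a median of 0.40 over the members and 0.32 over all scored genes. In 59 members the highest of the 8 plants was under 2-fold above the lowest, and the late plants averaged 46.2% of the median of the 8, with a range of 31.8% to 64.7%. These steady genes had scores of at most 0.85, and none was under 1 TPM in both late plants. In 50 members the 8 plants spanned 2-fold to under 4-fold, and in 41 they spanned 4-fold or more. In these 41 variable genes the late plants had a median of 11.1% of the others, and 17 of them were under 1 TPM in both late plants. The 20 members with the highest scores came mostly from this variable class, with 17 of 20 at 4-fold or more. The heat map of the members shows both kinds.

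**Figure D2:**
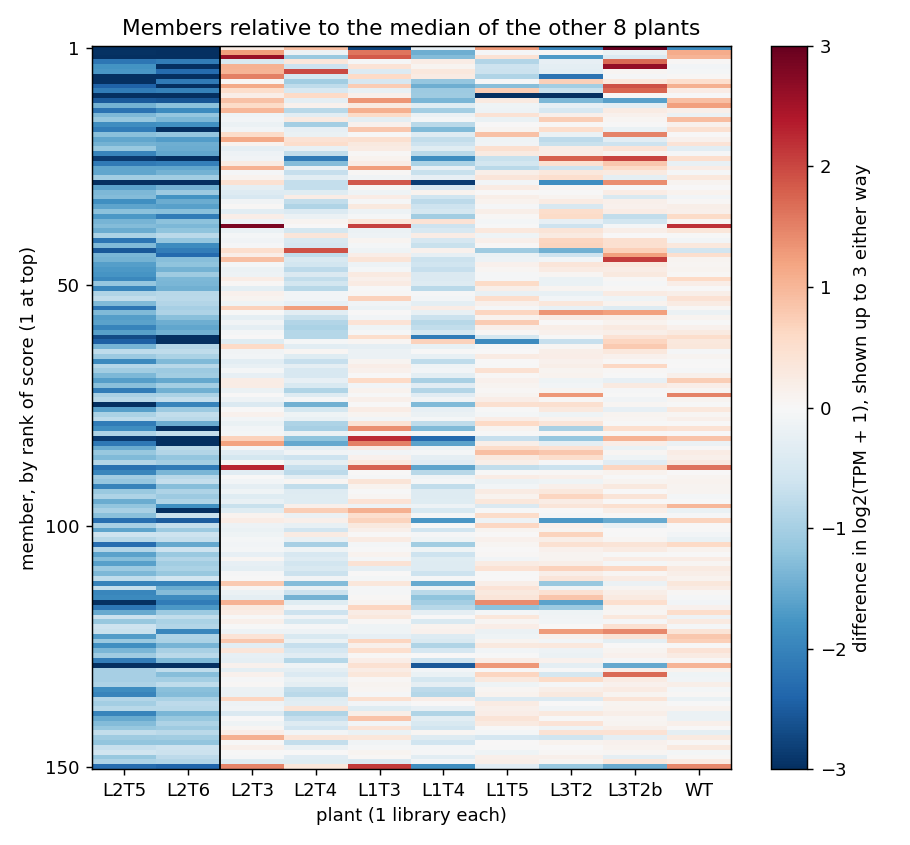
Difference of each member from the median of the other 8 plants on the log2(TPM + 1) scale, with members in order of score from top to bottom and 1 plant per column. The 2 columns left of the line, AtCMT3-L2T5 and AtCMT3-L2T6, are blue in every row, and AtCMT3-L2T4 and AtCMT3-L1T4 are pale blue in most.

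The member with the highest score, Thhalv10022890m, shows how far the other plants can differ. It was at 0.272 and 0.149 TPM in AtCMT3-L2T5 and AtCMT3-L2T6. In the other 8 plants its lowest value was 3.67 TPM in AtCMT3-L1T3, its median 31.4 TPM and its highest value 279 TPM in AtCMT3-L3T2b, with 7.61 TPM in WT. The late plants were far below all others, but WT was also well below the T4 plants of both lineages, at 58.5 TPM in AtCMT3-L2T4 and 26.1 TPM in AtCMT3-L1T4. The gene with the third highest score, Thhalv10014105m, was listed at 0 in AtCMT3-L2T5 and stood at 0.112 TPM in AtCMT3-L2T6. Its values in the other plants ran from 1.72 TPM in AtCMT3-L3T2 over a median of 8.25 TPM to 52.1 TPM in AtCMT3-L2T3, with 17.0 TPM in WT. Here the T3 plants were the highest, and AtCMT3-L3T2 and both T4 plants were already low. Neither gene is named in the sources used here.

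The 5 members with the highest mean were steady genes by comparison. The most abundant of all was at 157 and 223 TPM in AtCMT3-L2T5 and AtCMT3-L2T6. In the other plants it lay between 316 TPM in AtCMT3-L2T4 and 526 TPM in AtCMT3-L1T3, with 468 TPM in WT. In each of these 5 genes AtCMT3-L2T5 was the lowest plant and AtCMT3-L2T6 the next, then came both T4 plants, and the remaining 6 plants were highest. Abundant genes were more frequent among the members than among the scored genes, at 30 members with a mean of 100 TPM or more, or 20%, against 9.50% of scored genes. In 26 of these 30 AtCMT3-L2T5 was below AtCMT3-L2T6, against 67.3% of all members and 64.6% of scored genes. In 28 of the 30 the lowest of the other 8 plants was a T4 plant, against 73.3% of all members. Another 82 members averaged from 10 to under 100 TPM and 38 averaged under 10 TPM.

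The T4 plants came next to the late plants in most members. The lowest of the other 8 plants was AtCMT3-L2T4 for 59 members and AtCMT3-L1T4 for 51, together 110 members or 73.3%. Over all scored genes the lowest of the 8 was AtCMT3-L2T4 for 15.6% and AtCMT3-L1T4 for 17.3%. WT was the lowest for 2 members. The median member differed from WT by -0.60 in AtCMT3-L2T4 and by -0.62 in AtCMT3-L1T4 on the log2(TPM + 1) scale, where all scored genes had medians of -0.06 and -0.08. In the other 5 AtCMT3 plants the member medians lay between -0.17 in AtCMT3-L2T3 and 0.04 in AtCMT3-L3T2b. With median of ratios scaling the T4 values were -0.57 and -0.56.

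Along the generations the gap between the lineages after T4 was built in, since the rule placed both late AtCMT3-L2 plants below all others. AtCMT3-L2T4 was below AtCMT3-L2T3 in 124 members, or 82.7%, against 57.8% of scored genes. AtCMT3-L1T4 was below AtCMT3-L1T3 in 128 members, or 85.3%, against 55.9%. In lineage L2 the same 124 members thus had an unbroken order of T3 above T4 above T5, since the rule placed the T5 plant below T4. In lineage L1 the T5 plant was above the T4 plant in 127 members, or 84.7%, against 49.9% of scored genes, and its median member differed from WT by -0.06. The plot of medians by generation shows these higher values of AtCMT3-L1T5 and the low values in L2 that the rule required. Each generation is 1 plant, so generation and plant cannot be told apart.

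**Figure D3:**
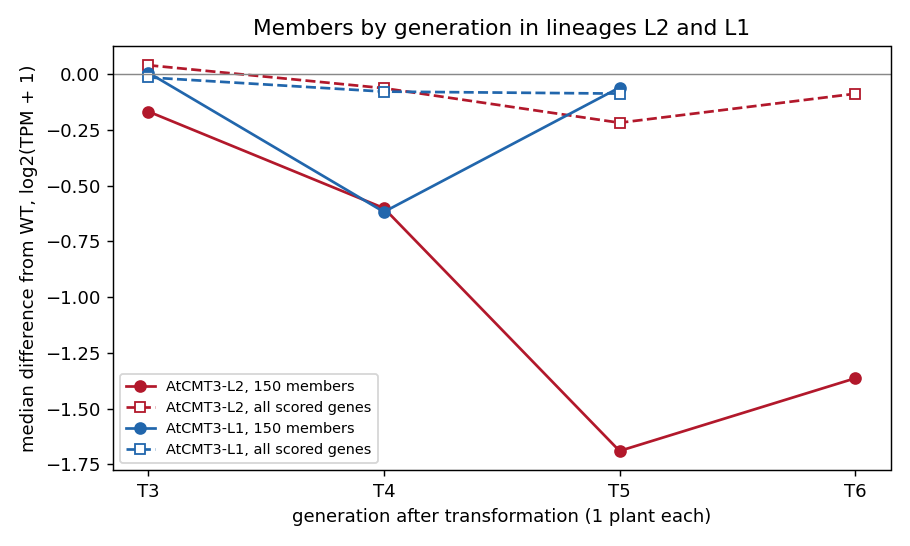
Median difference from WT on the log2(TPM + 1) scale for the 150 members (solid) and all scored genes (dashed) by generation in lineages L2 (red) and L1 (blue), 1 plant per point. Both lineages are near -0.6 in T4, then L2 is at -1.69 and -1.36 in T5 and T6 and L1 is at -0.06 in T5. The rule required the low L2 values in T5 and T6.

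How far the late plants differed from each other varied by gene. Of the 150 members, 101 were lower in AtCMT3-L2T5 and 47 in AtCMT3-L2T6. That is 67.3% lower in AtCMT3-L2T5, against 64.6% of scored genes. The median difference of AtCMT3-L2T6 minus AtCMT3-L2T5 was 0.15 over the members and 0.14 over all scored genes on the log2(TPM + 1) scale, with extremes of -2.35 and 2.14 among the members. Of the 144 members above 0 in both, 100 were within 1.5-fold. This count was not made for all scored genes, and the rule favours genes that are low in both late plants. Whether the late plants were more alike in the members was therefore not tested. The transgene itself, which is no member, was at 62.7 and 5.39 TPM in AtCMT3-L2T5 and AtCMT3-L2T6, against 64.5 to 372 TPM in the other AtCMT3 plants and 0.225 TPM in WT. Both late plants were thus lowest among the AtCMT3 plants, though AtCMT3-L2T5 was close to AtCMT3-L1T4 at 64.5 TPM. AtCMT3-L2T4, the generation before, was at 190 TPM. The paper reports that transgene expression in this lineage was lost step by step after T4. The rule required low members in both late plants, so a link to the transgene level was not tested.

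The study's methods call genes at a log2 FPKM ratio of -2 or less, which was applied here to the TPM values, without a pseudocount. AtCMT3-L2T5 was past this cutoff against WT in 54 of the 144 members above 0, where 4.74% of all genes with values in both libraries were. Against AtCMT3-L2T4, the generation before, it was past the cutoff in 27 members (background 3.57%), and against AtCMT3-L1T5, the plant of the same generation in the other lineage, in 48 (background 3.72%). AtCMT3-L2T6 was past it in 51 of 148 members against WT (background 4.07%), in 33 against AtCMT3-L2T4 (background 4.47%) and in 42 against AtCMT3-L1T5 (background 3.45%). The rule chose the members on these libraries, so their excess over the background is built in and nothing is read from it. On the values as deposited, 32 members were past the cutoff against WT in each late plant. The median log2 ratio of the members was -1.80, -1.09 and -1.72 in AtCMT3-L2T5 and -1.45, -0.78 and -1.50 in AtCMT3-L2T6 against WT, AtCMT3-L2T4 and AtCMT3-L1T5. Most members were therefore reduced by less than the cutoff asks.

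Names were available for 11 of the 150 members, or 7.33%, through A. thaliana orthologs in a table of the study that covers 10.1% of the scored genes. The table holds genes that the study found to gain CHG methylation and is held here only in part, so the named genes are no fair sample of the members. Among them was 1 member of the jasmonate pathway, Thhalv10008419m, the ortholog of JAZ1, with the second highest score of all genes. The JAZ1 ortholog was at 10.01 and 7.93 TPM in AtCMT3-L2T5 and AtCMT3-L2T6. In the other 8 plants it ranged from 30.3 TPM in AtCMT3-L1T4 over a median of 85.2 TPM to 262 TPM in AtCMT3-L1T3, with 184 TPM in WT and 205 TPM in AtCMT3-L2T3. The mean of both late plants was 10.5% of that median, the T3 plants and WT were highest, and the remaining plants lay between.

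The other jasmonate genes that could be named behaved differently from each other. Thhalv10021029m, the ortholog of the related repressor JAZ3, was at 9.35 and 8.99 TPM in AtCMT3-L2T5 and AtCMT3-L2T6. In the other plants it ran from 12.3 TPM in AtCMT3-L3T2b over a median of 17.4 TPM to 47.5 TPM in WT. It was below all others in both late plants, but with a score of 0.36 it was not a member. The ortholog of the corepressor TPL scored -0.01, at 15.7 and 16.1 TPM in AtCMT3-L2T5 and AtCMT3-L2T6 and 16.8 TPM in WT. MED25, a Mediator subunit that works with jasmonate-responsive transcription factors, scored -0.49 and TPR4, a relative of TPL, scored -0.66. Of these 5 genes 2 had both late plants below all others, against 12.8% of scored genes. The list was chosen with earlier results known and holds a member, so this difference was not tested and nothing is read from it.

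Genes of ribosome biogenesis and RNA decay gave 2 named members. PWP2 is a component of the particle that processes the small ribosomal subunit RNA, and its ortholog Thhalv10006752m was at 1.94 and 3.74 TPM in AtCMT3-L2T5 and AtCMT3-L2T6. In the other plants it had 5.88 TPM at the lowest, in AtCMT3-L2T4, a median of 7.27 TPM and 11.2 TPM at the highest, in AtCMT3-L1T5, with 7.47 TPM in WT. Thhalv10023611m, the ortholog of an exonuclease-like subunit of the RNA exosome, was at 2.33 and 2.78 TPM in AtCMT3-L2T5 and AtCMT3-L2T6. In the other plants it had 4.47 TPM at the lowest, in AtCMT3-L2T4, a median of 7.43 TPM and 11.04 TPM at the highest, in AtCMT3-L3T2, with 8.33 TPM in WT. Both genes had low levels throughout, and both were lowest in the late plants and next lowest in AtCMT3-L2T4.

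The wider list of this process held 19 genes with an ortholog, and all were scored. In 15 of the 19, or 78.9%, both late plants were below all others, where 12.8% of scored genes were. The median score of the 19 was 0.17, against -0.45 over all scored genes. Like the other lists, this one was chosen with earlier results of these data known, and it holds the 2 members. Its excess over the scored genes was therefore not tested, and nothing is read from it. The share among the 1640 scored genes with an ortholog, from which the lists were drawn, was not worked out. The median difference of the 19 genes from WT was -1.33 in AtCMT3-L2T5 and -0.78 in AtCMT3-L2T6 on the log2(TPM + 1) scale. The 15 were PWP2 and the exosome subunit, the RNA polymerase I subunit NRPA2, the exosome helicase MTR4, the pre-rRNA processing factors BOP1, RRP5, NOP14, APUM23 and APUM24, the nucleolar GTPases NUG2 and NOG1-1, and the orthologs of the yeast assembly factors BMS1, TSR1 and ENP1 and of the rRNA acetyltransferase NAT10. NOG1-1 was at 51.2 and 69.4 TPM in AtCMT3-L2T5 and AtCMT3-L2T6, against a lowest value of 80.8 TPM in AtCMT3-L2T4, a median of 127 TPM and a highest value of 177 TPM in WT. BOP1 was at 5.92 and 10.96 TPM in AtCMT3-L2T5 and AtCMT3-L2T6, against 13.4 TPM at the lowest, in AtCMT3-L2T4, a median of 26.2 TPM and 32.9 TPM at the highest, in WT. Both had the order of the abundant members, with AtCMT3-L2T5 lowest and AtCMT3-L2T6 next.

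The 4 genes of this list without that pattern were the other exosome subunit, with a score of -0.24, XRN3, a nuclear exonuclease, with -0.10, UTP22, a processing factor, with -0.10, and RRN3, a transcription factor of RNA polymerase I, with a score just under 0. The list depends on the scale of the values. With median of ratios scaling 14 of the 19 genes scored above 0, and without the 200 most abundant genes in the column totals 15 did. On the values as deposited, in which WT and the late plants have different units, 2 did. Taken from the table of CHG-gain genes, the list cannot stand for the whole process.

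Among translation factors the member was Thhalv10008134m, the ortholog of TIF3H1, a subunit of the initiation factor eIF3. TIF3H1 was at 32.8 and 31.9 TPM in AtCMT3-L2T5 and AtCMT3-L2T6, against 48.4 TPM at the lowest, in AtCMT3-L2T4, a median of 56.5 TPM and 65.5 TPM at the highest, in AtCMT3-L1T5, with 62.4 TPM in WT. The late plants were almost equal, and the other 8 lay in a narrow band above them. Of the 9 translation genes on the list 5 scored above 0, or 55.6%, against 12.8% of scored genes. They were TIF3H1, TIF3I, which is another eIF3 subunit, RACK1A, a scaffold protein on the small ribosomal subunit, ILA, the GCN1 homolog, and the beta subunit of eIF2B. RACK1A was at 79.2 and 107 TPM in AtCMT3-L2T5 and AtCMT3-L2T6, against 134 TPM at the lowest, in AtCMT3-L2T4, a median of 222 TPM and 241 TPM at the highest, in AtCMT3-L1T3. The others, TIF3F1, RACK1B, ELF5A-1 and ELF5A-3, had scores between -0.02 and -1.60. With median of ratios scaling 4 of the 9 scored above 0. This list too was chosen with earlier results known and holds a member, so its excess was not tested and nothing is read from it.

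Of 20 genes on the list of chromatin and small RNA factors, 2 scored above 0, or 10%, near the 12.8% of all scored genes. This share was not tested either. Only 1 of the 20 was a member. Thhalv10022653m, the ortholog of FVE, a WD repeat protein of histone deacetylase complexes that promotes flowering in A. thaliana, was at 38.3 and 37.0 TPM in AtCMT3-L2T5 and AtCMT3-L2T6. In the other 8 plants it lay between 52.6 TPM in AtCMT3-L1T5 and 61.3 TPM in AtCMT3-L1T3, with a median of 58.1 TPM and 55.4 TPM in WT. The FVE ortholog ranked near the end of the list and lost least in proportion, but its other 8 plants were the most alike of the named members, and the T4 plants were not low. The other gene with a score above 0 was PIE1, a chromatin remodeler, with 0.09. The median difference of the 20 genes from WT was 0.14 in AtCMT3-L2T5 and -0.02 in AtCMT3-L2T6 on the log2(TPM + 1) scale, which became 0.34 and 0.06 with median of ratios scaling, where 1 of the 20 scored above 0. AGO1 and DCL1, of the microRNA pathway, and NRPE1, the large subunit of RNA polymerase V, had negative scores, each with at least 1 late plant within the range of the others.

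**Figure D4:**
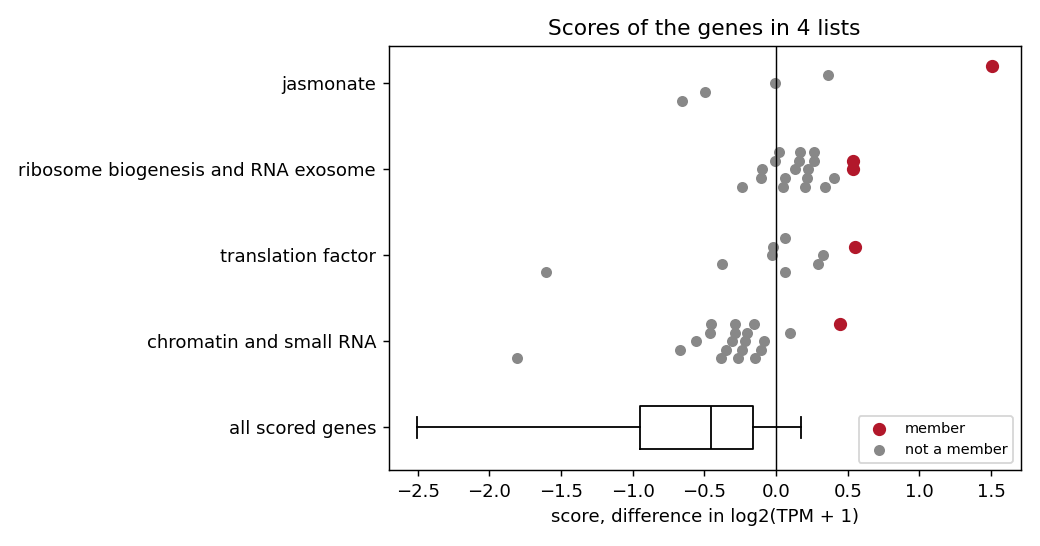
Scores of the genes in 4 lists, with 1 point per gene and members in red, and a box for all scored genes (quartiles, median, whiskers to the 5th and 95th percentile). Most ribosome biogenesis genes (15 of 19) lie right of 0. Most chromatin and small RNA genes (18 of 20) lie left of it, as do most scored genes, of which 12.8% lie right of 0. The lists were chosen with earlier results known.

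The remaining 6 named members belong to no list. Thhalv10027735m, the ortholog of the immunophilin FKBP43, was at 3.58 and 3.48 TPM in AtCMT3-L2T5 and AtCMT3-L2T6, against 6.4 TPM at the lowest, in AtCMT3-L2T4, a median of 12.8 TPM and 15.9 TPM at the highest, in AtCMT3-L1T3. It had the second largest proportional loss of the named members, after JAZ1, and both T4 plants and AtCMT3-L3T2 were low as well. Thhalv10016908m, the ortholog of the mitochondrial iron transporter MIT1, was at 4.76 and 5.75 TPM in AtCMT3-L2T5 and AtCMT3-L2T6, against 8.92 TPM at the lowest, in AtCMT3-L1T4, a median of 10.2 TPM and 11.3 TPM at the highest, in AtCMT3-L2T3. Thhalv10022228m, whose ortholog resembles a peptidase subunit of the mitochondrial inner membrane, was at 1.64 and 2.12 TPM, against 3.53 TPM at the lowest, in AtCMT3-L2T3, a median of 4.77 TPM and 9.72 TPM at the highest, in AtCMT3-L1T5. MIT1 was steady among the other plants, and the peptidase varied 2.75-fold.

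Thhalv10018304m, the ortholog of a TYW1-like enzyme that makes a modified base of transfer RNA, was at 14.8 and 17.2 TPM in AtCMT3-L2T5 and AtCMT3-L2T6, against 25.4 TPM at the lowest, in AtCMT3-L2T4, a median of 28.8 TPM and 30.3 TPM at the highest, in AtCMT3-L1T3. Thhalv10018556m, the ortholog of an aminotransferase, was at 10.6 and 9.37 TPM in AtCMT3-L2T5 and AtCMT3-L2T6, against 15.7 TPM at the lowest, in AtCMT3-L1T4, a median of 20.9 TPM and 33.3 TPM at the highest, in AtCMT3-L3T2. Thhalv10006817m, which encodes a WD repeat protein, was at 4.92 and 5.88 TPM, against 8.97 TPM at the lowest, in AtCMT3-L2T4, a median of 11.2 TPM and 13.2 TPM at the highest, in AtCMT3-L1T5. In the plot of the named members the late plants stand apart from the other points in each row, and the T4 plants are at or near the low end of most rows.

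**Figure D5:**
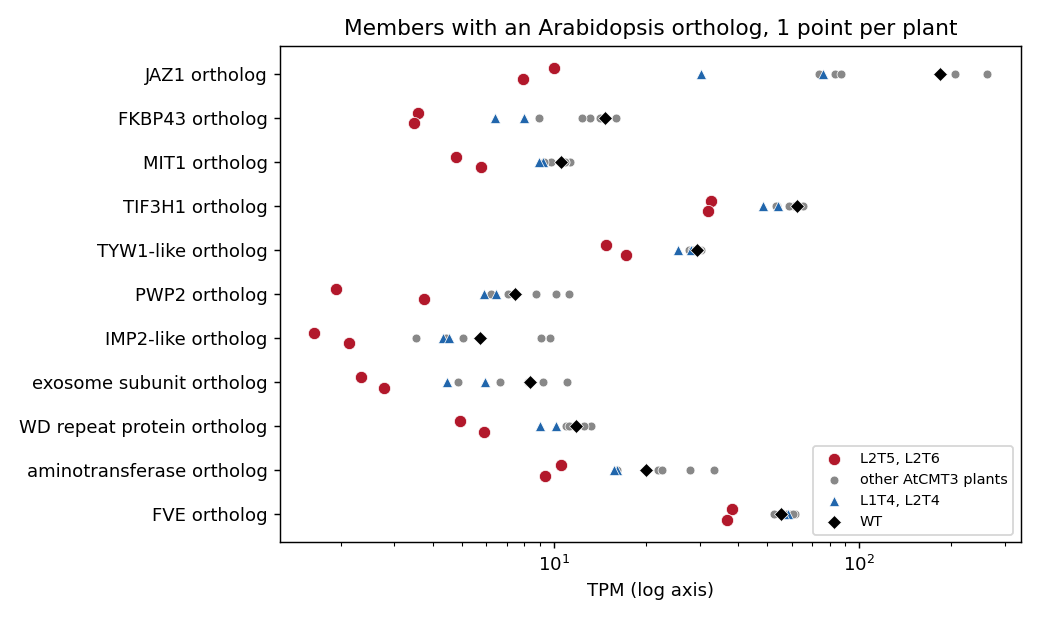
TPM on a log axis of the 11 members with an A. thaliana ortholog in each of the 10 plants, with late AtCMT3-L2 plants in red, T4 plants as blue triangles, WT as black diamonds and the rest in grey. The gap left of the grey points is widest for the JAZ1 ortholog (10.01 and 7.93 TPM in the late plants against 30.3 TPM or more) and the other plants are closest together for FVE (52.6 to 61.3 TPM).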

How the data were processed

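Read trimming (Trimmomatic), alignment (HISAT2, whose version differs between the methods and the processing notes, E. salsugineum genome v1.0) and quantification (StringTie 1.3.3b) were done by the authors. Values for 26352 genes were deposited by the authors as FPKM. By their sums only 5 of the 10 columns are FPKM (676021 to 695872 per library). The other 5 columns that the authors deposited sum to 1000000 and hold TPM, among them both late AtCMT3-L2 plants and AtCMT3-L1T5, AtCMT3-L3T2 and AtCMT3-L3T2b. All columns were brought to a total of 1000000. The files give no reads per gene, so depth behind a value is unknown.

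Scores used log2(TPM + 1), and log2 ratios used no pseudocount and left out genes at 0. No test was run, since all RNA libraries entered the choice of members. The members and the gene lists were chosen with earlier results of these data known. Genes were to be named by score, by mean level, at the edge of the list and by list. The expression table pairs no names with identifiers and the reference table matched none of them. Orthologs from the study therefore replaced the lists that had been laid out by product name, and only 2 members without a name are given by identifier. Leaf marker genes, positions, promoters and H3K9me2 over the members were not analysed here, and neither were the other libraries of the study.

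Alternatives were pseudocounts of 0.1 and 5, mean levels of 1 and 5 TPM, values as deposited, median of ratios scaling, each library left out in turn, the 5 TPM libraries alone, a minimum of 1 TPM in both libraries of a ratio, and a cutoff of -1. Column totals without the 200 most abundant genes were added after the data were seen. The scoring was tested on simulated data. Python 3.11.15, numpy 2.4.6, pandas 2.3.3 and matplotlib 3.10.9 were used.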

Additional observations from a re-analysis of the deposited data

How the results depend on the processing

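The list depends on both late plants and on the scale. Genes with a score above 0 numbered 2079, and 175 on the values as deposited, 1255 with median of ratios scaling, 1251 with column totals without the 200 most abundant genes, and 5189 in the 5 TPM libraries alone, where fewer plants must lie above the late ones. Leaving out 1 library gave 2129 to 4802 genes, with 3122 without AtCMT3-L2T5 and 4802 without AtCMT3-L2T6. Of the 150 members, 39 stayed among the 150 highest scores in the TPM libraries alone and 36 to 148 did with 1 library left out, with 36 without AtCMT3-L2T5, 49 without AtCMT3-L2T6 and 92 without AtCMT3-L1T4. On the values as deposited, whose units differ between plants, 117 members still scored above 0. The median score of 0.56 was 0.10 on the values as deposited, 0.97 in the TPM libraries alone and 0.56 to 0.78 with 1 library left out.

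Members at or below the cutoff of -2 against WT numbered 54 in AtCMT3-L2T5 and 51 in AtCMT3-L2T6, and 32 in each on the values as deposited. With at least 1 TPM in both libraries the 27 of AtCMT3-L2T5 against AtCMT3-L2T4 became 11, and for AtCMT3-L2T6 the 51, 33 and 42 against WT, AtCMT3-L2T4 and AtCMT3-L1T5 became 27, 11 and 21. With a cutoff of -1 the counts against WT, AtCMT3-L2T4 and AtCMT3-L1T5 were 126, 82 and 125 in AtCMT3-L2T5. They were 122, 57 and 124 in AtCMT3-L2T6. Among scored genes above 0 in both libraries, 15.8%, 7.17% and 12.9% were past this cutoff in AtCMT3-L2T5. In AtCMT3-L2T6 the shares were 11.5%, 6.89% and 8.95%. The excess of the members is again built in by the rule. No such share was taken for the minimum of 1 TPM or the values as deposited. The other alternatives left the counts at the cutoff of -2, the members kept and the median score within the limits set for them. No paired analysis was possible because each plant has 1 library, and no result comes from a fitted test.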

Other observations

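Some genes of the lists that were not members departed from the pattern of the members in different ways. They were chosen after their values were seen. The ortholog of VAL1, a repressor of seed maturation genes, was at 17.9 and 20.6 TPM in AtCMT3-L2T5 and AtCMT3-L2T6, and at 18.4 TPM in AtCMT3-L2T4 and 19.2 TPM in AtCMT3-L1T4, where the other 6 plants lay between 23.9 and 39.3 TPM with 33.7 TPM in WT. The late plants and the T4 plants thus overlapped for this gene. The ortholog of the corepressor TPR4 was at 41.5 and 48.8 TPM in AtCMT3-L2T5 and AtCMT3-L2T6, but lower still in both T4 plants, which had 32.5 TPM (AtCMT3-L2T4) and 30.5 TPM (AtCMT3-L1T4), against 66.9 TPM in WT. Among the genes of the lists, the late plants differed strongly in ELF5A-3, a gene of the translation factor eIF5A. It was at 63.5 and 13.2 TPM in AtCMT3-L2T5 and AtCMT3-L2T6, above and below all other plants, with 41.2 TPM in WT. FDM1, which acts in RNA-directed DNA methylation, was at 29.3 and 31.5 TPM in AtCMT3-L2T5 and AtCMT3-L2T6 and at 10.3 TPM in WT, and AtCMT3-L2T4 was higher still at 39.4 TPM.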
